A study of Mus musculus with 6 samples.

Results

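Leukocyte integrins are described here by 10 subunit genes, listed by symbol: Itgam, Itgal, Itgax, Itgb2, Itga4, Itga6, Itgb1, Itgav, Itgb3 and Itgb5. They were chosen with earlier results of these data known, so the shares of members called are a description only. All 10 were found, by Ensembl identifier, among the 46603 gene rows of the count tables, and all 10 passed the filter on low counts that left 12767 genes for testing. The cells were macrophages derived from the marrow of C57BL/6/J mice aged 7 weeks and grown with 20% L929-conditioned medium. Cells were detached and seeded on day 6 at 800000 per well, and 6 h later both groups received medium conditioned by cancer cells, which kept its lipids in 3 libraries and lacked them in 3. The labels name no untreated macrophages, so each value below compares 2 conditioned media and not conditioned with plain medium. The sources used here do not give the cancer cell, the way lipids were removed or the exposure time. They do not say either that replicates are separate mice or cultures, so p-values reflect only library-to-library spread, possibly technical.

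Integrins are cell-surface receptors made of 1 alpha and 1 beta chain, and the chains pair inside the cell before they reach the surface. Through them leukocytes adhere to vessel walls, to matrix and to particles opsonised by complement. Talin and kindlin bind the beta tail from inside and switch the receptor to its high-affinity form, and ligand binding then signals back through SRC-family kinases and SYK. In macrophages the chain CD18 (Itgb2) pairs with CD11b (Itgam), CD11a (Itgal) or CD11c (Itgax), the chain CD29 (Itgb1) pairs with the laminin and VCAM-binding alpha chains, and CD51 (Itgav) pairs with Itgb1, Itgb3 or Itgb5.

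Library totals ran from 19429022 to 25323053 counts. A count of 0 allows up to 3 counts, or 0.115 to 0.159 counts per 1000000 (CPM), by counting error only. Pairs of libraries without lipids correlated at 0.993 to 0.996 and pairs with lipids at 0.997 to 0.998 (log2 CPM, across genes), and replicate 1 without lipids stood apart from its fellows. Leaving it out raised the number of called genes from 1462 to 3541, so values without it are given beside the results it touches. Macrophage identity fitted the label, as all 8 macrophage markers looked up passed the filter, with Lyz2 at 19610 to 24730 CPM and Csf1r at 2615 to 3095 CPM. Of these markers 2 were higher with lipids, Cd163 at 0.88 log2 and Fcgr1 at 0.29, and 1 was lower, Cd68 at -0.55. Of all tested genes 4.58% were higher and 6.87% lower. With each library left out in turn, 1 to 3 of these markers were higher and 1 to 2 lower. In those fits 1.69% to 12% of all tested genes were higher and 3.27% to 15.1% lower. The part of these marker shifts in the integrin results was not tested. In bulk RNA, fewer cells of a type and less RNA per cell cannot be told apart.

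With lipids in the medium, macrophages held more transcript of Itgam and Itga6 and less of Itgax and Itgb3, while the other 6 subunits did not pass the test. Itgam was 1.48-fold and Itga6 1.27-fold higher with lipids, and Itgax was 1.99-fold and Itgb3 1.93-fold higher without them. The test was edgeR's quasi-likelihood F test with Benjamini-Hochberg adjustment over all tested genes and a threshold of 0.05, and log2 differences are with minus without lipids. Of the 10 members, 2 were called higher and 2 lower, against 4.58% of all tested genes called higher, 6.87% lower and 11.5% in either direction. The members' median log2 fold change was 0.10, and that of all tested genes was -0.003. The 2 alpha chains higher with lipids were abundant, and the 2 chains lower with lipids were the scarcest of the 10.

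**Figure D1:**
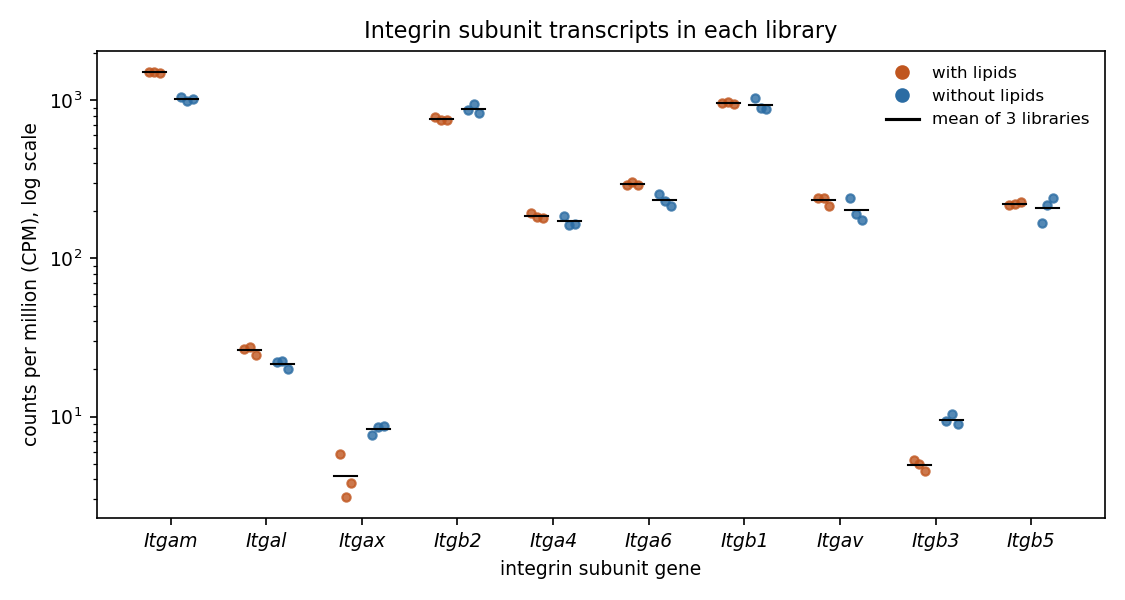
CPM (log axis) of the 10 subunit genes in each library, with lipids (orange) and without (blue); points are libraries and bars are means of 3. Itgam and Itga6 lie higher and Itgax and Itgb3 lower with lipids, with no overlap between the groups.

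The chains that share CD18 moved apart. Itgam encodes CD11b, which with CD18 forms complement receptor 3, the receptor for the complement fragment iC3b. Itgam was at 1503, 1513 and 1498 CPM with lipids and 1044, 998 and 1017 CPM without. All 3 libraries with lipids lay far above all 3 without, and the spread within each group was small. The log2 difference was 0.56 (SE 0.05, edgeR adjusted p = 7.72e-05), and it was 0.58 without the library that stood apart.

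Itgax encodes CD11c, which with CD18 forms complement receptor 4 and marks dendritic cells and some tissue macrophages. Its level was 5.79, 3.11 and 3.79 CPM with lipids and 7.62, 8.64 and 8.77 CPM without, from 81 to 191 counts per library. Every library with lipids was below every library without, but replicate 1 with lipids lay nearest to the other group. The log2 difference was -0.99 (SE 0.19, edgeR adjusted p = 0.00737), and it was -1.28 without that library and -1.05 without replicate 1 of the other group.

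Itgal encodes CD11a, which with CD18 forms LFA-1, the receptor for ICAM proteins. Itgal was at 26.6, 27.7 and 24.5 CPM with lipids and 22.1, 22.6 and 20.1 CPM without. The groups did not overlap, yet the difference of 0.29 log2 (SE 0.08, edgeR adjusted p = 0.0543) did not pass over all genes. Itgb2, the shared beta chain, was at 787, 755 and 747 CPM with lipids and 864, 942 and 835 CPM without, at -0.21 log2 (SE 0.06, edgeR adjusted p = 0.0529). Its groups did not overlap either, and the sign was opposite to that of its main partner Itgam. Both values lay close to the threshold, and several alternatives called them: without replicate 1 without lipids, Itgal was at 0.31 (edgeR adjusted p = 0.0138) and Itgb2 at -0.21 (edgeR adjusted p = 0.0107), and without replicate 3 of that group Itgb2 was at -0.24 (edgeR adjusted p = 0.0246).

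The genes of the CD18 alpha chains lie on the same chromosome, and Itgam and Itgax are neighbours that changed in opposite directions. On chromosome 7 of GRCm38, Itgam spans 128062640 to 128118491 and Itgax 128129547 to 128150657, both on the plus strand and 11.1 kb apart. Gm49368, a gene model on the same strand that shares 3450 exonic bases with Itgam, was not among the counted genes. On the same chromosome Itgal spans 127296260 to 127335138. Itgad, a further CD18 alpha chain gene, held 4 counts over all 6 libraries. Itgb2 lies on chromosome 10 (77530252 to 77565708), Itgb1 on chromosome 8 (128685654 to 128733200), Itgb3 on chromosome 11 (104608000 to 104670476) and Itgb5 on chromosome 16 (33829665 to 33949338). Itga4 (79255426 to 79333123), Itga6 (71745616 to 71858416) and Itgav (83724397 to 83806916) are all on chromosome 2.

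RefSeq promoter sequence on GRCm38.p6 was matched for 6 of the 10 members, with no entry for Itgal, Itgb2, Itga6 and Itgb3. The 250 bases before the start sites of the neighbours Itgam (chr7:128062390-128062639, plus strand) and Itgax (chr7:128129300-128129549, plus strand) are shown because these genes share a locus and a beta partner but differed in direction. Capitals mark matches, on either strand, to GAGGAA, the core bound by the myeloid factor PU.1, and to TGANTCA, the AP-1 site.
Itgam: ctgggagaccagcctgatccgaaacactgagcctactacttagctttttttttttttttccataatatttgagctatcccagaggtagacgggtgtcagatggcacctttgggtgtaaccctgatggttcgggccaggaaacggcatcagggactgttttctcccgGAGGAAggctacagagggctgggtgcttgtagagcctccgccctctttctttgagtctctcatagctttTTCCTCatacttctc
Itgax: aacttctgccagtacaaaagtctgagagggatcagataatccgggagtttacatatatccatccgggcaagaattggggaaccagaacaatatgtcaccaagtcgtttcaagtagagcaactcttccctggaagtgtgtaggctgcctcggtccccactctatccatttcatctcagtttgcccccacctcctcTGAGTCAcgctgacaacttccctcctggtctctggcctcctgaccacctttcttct

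In the Itgam window GAGGAA occurred on the plus strand at -84 and on the minus strand at -15, counted from the start site, and in the Itgax window TGANTCA occurred at -56. The search covered both strands of 250 bases, and TGANTCA, which reads alike on both, was counted once. GAGGAA was found in 3 of the 6 members (Itgam, Itgb1 and Itgav) and in 23.3% of 32851 promoters of this length. TGANTCA was found in 1 of 6 (Itgax) and in 6.75% of promoters, the Sp1 box GGGCGG in 4 of 6 (Itgam, Itga4, Itgb1 and Itgb5) and in 32.7%, and the E-box CACGTG in 0 of 6 and in 6.02%. The motifs do not overlap each other in these windows. A match is a description of the letters and not a shown binding site.

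Among partners of CD29, Itga6 changed. Itga6 encodes an alpha chain that with CD29 or the beta chain Itgb4 binds laminin. It was at 292, 305 and 290 CPM with lipids and 254, 231 and 213 CPM without. The groups did not overlap, and the 3 libraries without lipids were more spread. The log2 difference was 0.34 (SE 0.07, edgeR adjusted p = 0.0087), and 0.42 without replicate 1 without lipids. It was not called when replicate 2 with lipids was left out (0.32, edgeR adjusted p = 0.061).

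Itga4 encodes CD49d, which with CD29 forms VLA-4, the receptor for VCAM-1 and fibronectin. Itga4 was at 193, 182 and 181 CPM with lipids and 186, 164 and 165 CPM without, and Itgb1 was at 965, 982 and 954 CPM with lipids and 1034, 897 and 877 CPM without. For both genes replicate 1 without lipids lay high in its group, and the groups overlapped. Itga4 was at 0.11 log2 (SE 0.07, edgeR adjusted p = 0.319) and Itgb1 at 0.05 (SE 0.07, edgeR adjusted p = 0.706). Without that library they were at 0.18 (edgeR adjusted p = 0.0229) and 0.13 (edgeR adjusted p = 0.0476), both past the threshold. Itga4 shares 1124 exonic bases with Cerkl on the other strand, which held 137 counts over the 6 libraries against 23117 for Itga4.

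The alpha chain Itgav and its beta partners serve adhesion to vitronectin, osteopontin and latent TGF-beta, and the pair with Itgb3 is prominent in osteoclasts. Itgb3 was at 5.33, 5.00 and 4.49 CPM with lipids and 9.41, 10.4 and 8.91 CPM without, from 96 to 196 counts per library. The groups were well separated, differing by -0.95 log2 (SE 0.12, edgeR adjusted p = 0.000547) that stayed at -0.95 without replicate 1 without lipids. Itgav was at 241, 243 and 214 CPM with lipids and 242, 190 and 175 CPM without. Its groups overlapped through replicate 1 without lipids, and the difference of 0.20 log2 (SE 0.11, edgeR adjusted p = 0.252) became 0.36 (edgeR adjusted p = 0.00121) without that library. Itgb5 was at 217, 221 and 226 CPM with lipids and 167, 217 and 240 CPM without. The libraries without lipids lay on both sides of the other group, and the difference of 0.09 log2 (SE 0.11, edgeR adjusted p = 0.644) turned to -0.042 without replicate 1 without lipids.

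When replicate 1 without lipids was left out, 6 of the 10 subunits were called higher and 3 lower, against 12% and 15.1% of 13039 tested genes, 27.2% in all. With no filter on low counts 4 were called higher, against 4.4% of tested genes. The groups did not overlap for 6 of 10 members in the full set, where 30.5% of all tested genes did not.

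**Figure D2:**
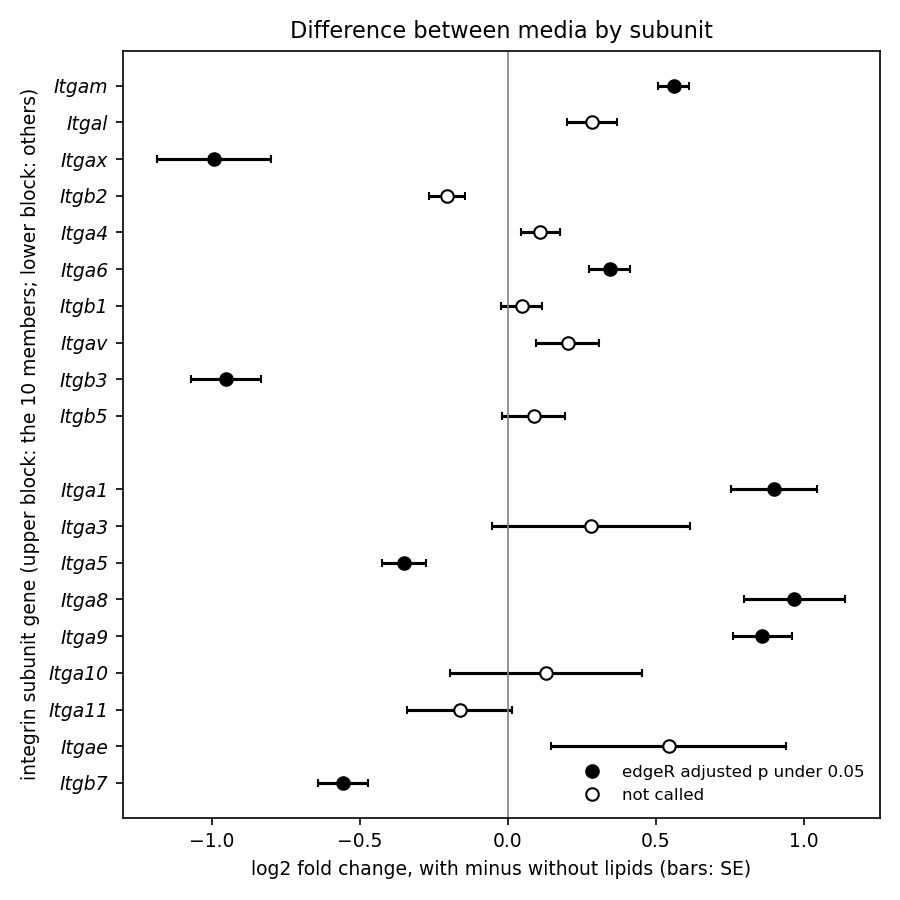
Log2 fold change with SE (bars), with minus without lipids, for the 10 members (upper block) and the other integrin subunits that passed the filter (lower block); filled points had an edgeR adjusted p under 0.05. Itgam and Itga6 are filled to the right and Itgax and Itgb3 to the left of 0.

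Levels of different genes were compared per kilobase of annotated exon (CPM per kb). These lengths join all annotated transcripts of a gene, which lowers the value of a gene with long rare forms. With lipids Itgam was the most abundant member at 299 ± 1.5 CPM per kb, followed by Itgb2 at 250 ± 7.0 and Itgb1 at 237 ± 3.4 (SD, n = 3 each). Without lipids the order of these was Itgb2 at 288 ± 18, Itgb1 at 229 ± 21 and Itgam at 203 ± 4.6. Neighbours in both orders did not overlap between libraries, so Itgam went from the third to the first place. Below them the order was the same in both groups: Itgb5 at 62.3 and 58.6 CPM per kb, Itga6 at 32.8 and 25.8, Itgav at 21.7 and 18.8, Itga4 at 13.3 and 12.3, and Itgal at 4.0 and 3.29. The scarcest members were Itgax at 0.881 and 1.74 and Itgb3 at 0.837 and 1.62 CPM per kb, and the libraries of these neighbours overlapped in each group.

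Ratios between 2 subunits of a library do not depend on how libraries are scaled. For 10 pairs that form a receptor or share a partner, the log2 ratio of counts was compared by an exact two-sided permutation test, in which 3 against 3 libraries cannot go below p = 0.1. The ratio of Itgam to Itgb2 was 0.93, 1.0 and 1.0 log2 with lipids and 0.27, 0.08 and 0.28 without, a difference of 0.77. Every library with lipids lay above every library without (exact permutation p = 0.1, adjusted over the pairs 0.143). Per kilobase of annotated exon, the ratio of Itgam to Itgb2 was 1.20 ± 0.03 with lipids and 0.706 ± 0.054 without (SD, n = 3 each). The size of such a ratio depends on the exon lengths used, so it is not a count of molecules.

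Among the other CD18 pairs, the ratio of Itgal to Itgb2 was higher with lipids by 0.49 log2 and that of Itgax to Itgb2 differed by -0.82. The ratio of Itgax to Itgam differed by -1.59 log2, the widest of the 10, at -8.02, -8.92 and -8.63 with lipids and -7.10, -6.85 and -6.86 without. The ratio of Itgav to Itgb3 was higher with lipids by 1.17. Per kilobase of annotated exon that ratio was 25.9 ± 0.96 with lipids and 11.6 ± 2.2 without (SD, n = 3 each). Itgb3 to Itgb5 differed by -1.06 and Itga6 to Itgb1 by 0.30. The groups did not overlap in these 7 pairs, each with an exact permutation p of 0.1. They overlapped in the other 3, where Itga4 to Itgb1 differed by 0.06, Itgav to Itgb1 by 0.16 and Itgav to Itgb5 by 0.11 (exact permutation p = 0.2, 0.2 and 0.8). The last turned to -0.10 without replicate 3 without lipids and was 0.39 without replicate 1 of that group. The pairs share genes with each other and with the single-gene results, so they are not separate results. No share of pairs without overlap was computed over other genes.

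**Figure D3:**
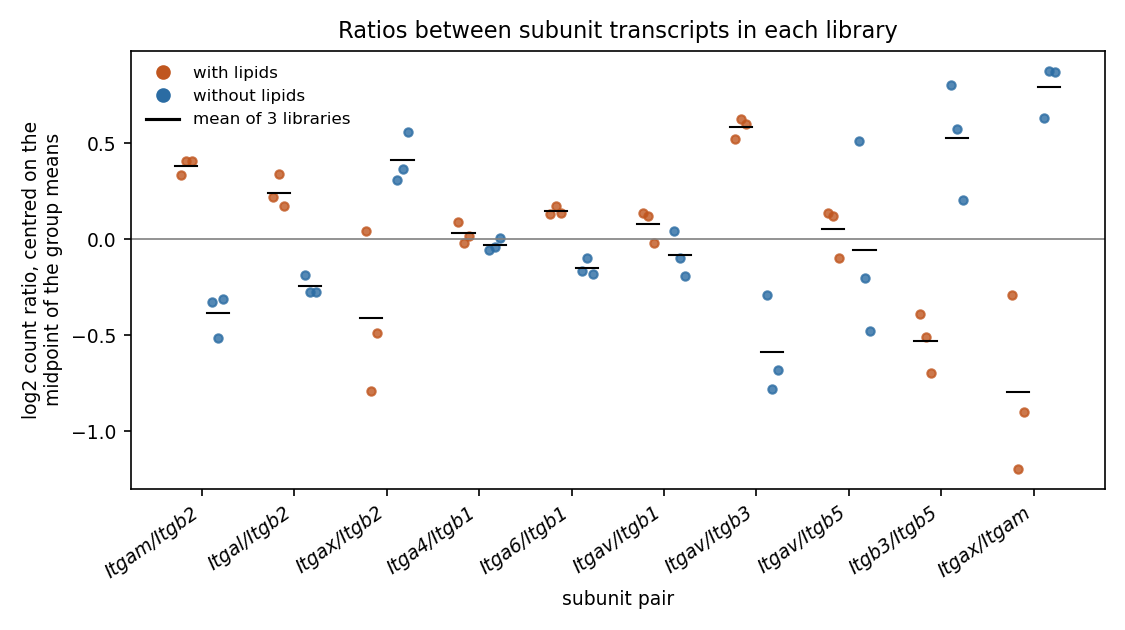
Log2 ratio of counts of 2 subunits in each library, with lipids (orange) and without (blue), centred for each pair on the midpoint of the group means; bars are means of 3. The groups do not overlap in 7 of 10 pairs, with the widest gap for Itgax to Itgam at -1.59. The pairs share genes, and no share over other gene pairs was computed.

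The 17 other integrin subunits also differed by subunit. Of 9 that passed the filter, 3 were higher and 2 lower with lipids (median 0.28), beside 4.58% and 6.87% of all tested genes. Itga9, an alpha chain for tenascin-C and osteopontin, was at 19.2 ± 0.90 CPM with lipids and 10.6 ± 1.1 without, higher by 0.86 log2 (SE 0.10, edgeR adjusted p = 0.000346). The collagen-binding chain Itga1 was higher by 0.90 at 3.85 ± 0.24 CPM and Itga8 by 0.97 at 3.29 ± 0.13 CPM, the latter from 29 to 88 counts per library (SD, n = 3 each). Itgb7, the alternative beta partner of Itga4, changed by -0.55 (SE 0.08, edgeR adjusted p = 0.00188), from 76.6 ± 9.0 CPM without lipids to 52.1 ± 1.3 with them. Itga5, the fibronectin receptor chain that pairs with CD29, changed by -0.35 (edgeR adjusted p = 0.0118) at 169 ± 4.5 and 216 ± 22 CPM. Itga5 was no longer called when replicate 1 or 2 with lipids or replicate 2 without was left out (edgeR adjusted p = 0.0678, 0.0697 and 0.063). In those fits 1 subunit of the list was lower, against 3.27% to 3.69% of all tested genes. Itga3 at 0.28, Itga10 at 0.13, Itga11 at -0.16 and Itgae at 0.54 did not pass. Itga2, Itga2b, Itga7, Itgad, Itgb2l, Itgb4, Itgb6 and Itgb8 lay below the filter, with Itgb2l and Itgb6 at 0 counts in all libraries. Thus of the CD29 partners that passed the test, Itga6, Itga1, Itga8 and Itga9 were higher and Itga5 was lower with lipids.

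Genes that switch integrins on from inside had calls in both directions. Of 22 listed, 19 passed the filter, and 2 were higher and 3 lower (median 0.02), 26.3% in all against 11.5% of all tested genes. Rap1b, the small GTPase that recruits talin and the most abundant of the list per length at 260 CPM per kb, was higher by 0.31 log2 (edgeR adjusted p = 0.00645), and Fermt2, kindlin-2, by 0.44 (edgeR adjusted p = 0.0292). The RAP1 exchange factors Rapgef1 and Rapgef3 were lower, at -0.38 and -1.20, the latter at only 1.38 ± 0.23 and 3.15 ± 0.68 CPM (SD, n = 3 each), while Rasgrp2, another of them, lay below the filter at 0.364 and 0.358 CPM. Itgb1bp1, which competes with talin for the CD29 tail, changed by -0.27 (edgeR adjusted p = 0.0309). It shares 196 exonic bases with Cpsf3 on the other strand, which held 9972 counts against 4157. The leukocyte kindlin Fermt3 was at -0.11 and talin, Tln1, at -0.09, and neither passed. Leaving out replicate 1 without lipids gave 5 higher and 5 lower, against 12% and 15.1% of all tested genes. Leaving out replicate 2 with lipids gave 0 higher, against 1.69% of all tested genes. Rap1b was then at an edgeR adjusted p of 0.0557 and Fermt2 at 0.141. Leaving out replicate 3 with lipids or replicate 2 without gave 1 higher, against 1.87%. Itgb1bp1 was not called when any 1 library with lipids or replicate 2 without was left out, with edgeR adjusted p-values of 0.086 to 0.167, nor with library totals alone (0.0901), and Fermt2 not without replicate 3 without lipids either (0.0506).

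Signalling genes downstream of integrins also had calls in both directions. Of 35 kinases and adhesion-complex genes, 34 passed the filter, and 3 were higher and 9 lower with lipids (median -0.02), 35.3% in all against 11.5% of all tested genes. Among SRC-family kinases, Src changed by -0.76 (SE 0.12, edgeR adjusted p = 0.00189) and Fgr by -0.60, at 5.77 ± 0.70 and 5.24 ± 0.17 CPM with lipids (SD, n = 3 each), while the more abundant Lyn was higher by 0.27. Parvg, the leukocyte parvin, was higher by 0.54 and Ptk2, focal adhesion kinase, by 0.40, while its relative Ptk2b changed by -0.21. Tns3, a tensin that binds beta tails, changed by -0.36. Tyrobp, the adaptor DAP12 and the most abundant of the list per length, changed by -0.23 (edgeR adjusted p = 0.0471). Leaving out replicate 1 without lipids gave 6 higher and 11 lower, against 12% and 15.1% of all tested genes. When any 1 library with lipids or replicate 2 without was left out, 1 or 2 were higher and 2 or 3 lower. Of all tested genes, 1.69% to 2.03% were higher and 3.27% to 3.75% lower in those fits. With library totals alone 3 were higher and 3 lower, against 9.72% and 4.67%. Under that scaling Tyrobp was at an edgeR adjusted p of 0.141. When single libraries were left out, the edgeR adjusted p reached 0.0654 for Lyn, 0.0889 for Ptk2, 0.0614 for Fgr and 0.21 for Tyrobp, while Src, Tns3 and Parvg stayed called.

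Of 32 ligands and counter-receptors, 23 passed the filter, and 2 were higher and 4 lower with lipids (median -0.04), 26.1% in all against 11.5% of all tested genes. C3, the source of the iC3b bound by the Itgam receptor, was at 57.2 ± 2.8 CPM with lipids and 125 ± 4.3 without (SD, n = 3 each), a log2 difference of -1.12 (SE 0.06, edgeR adjusted p = 4.94e-06). Icam1, a ligand of the Itgal and Itgam receptors, changed by -0.46 (edgeR adjusted p = 0.00292). Mfge8, a bridge between apoptotic cells and the Itgav receptors, changed by -0.57. Spp1, osteopontin and the most abundant ligand per length, changed by -0.32 (edgeR adjusted p = 0.0311). Thbs1, thrombospondin-1, was higher by 0.60 at 340 ± 34 CPM, and Jam3, a junctional ligand of the Itgam receptor, by 0.87 at only 1.36 ± 0.20 CPM, a call DESeq2 did not make (adjusted p = 0.119). Fibronectin, Fn1, was at -0.04, and vitronectin and the 3 fibrinogen chains were at 0 counts in all libraries. Leaving out replicate 1 without lipids gave 5 higher and 6 lower, against 12% and 15.1% of all tested genes. Leaving out any 1 library with lipids or replicate 2 without gave 1 higher and 3 lower, against 1.69% to 2.03% and 3.27% to 3.75%. In those fits the edgeR adjusted p reached 0.159 for Jam3 and 0.15 for Spp1, while Thbs1, C3, Icam1 and Mfge8 stayed called.

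Among 17 surface partners of integrins, all past the filter, edgeR called 5 lower with lipids and 0 higher (median -0.18), against 6.87% and 4.58% of all tested genes. DESeq2 and limma-voom also called 0 higher, and 0 were higher at an unadjusted p under 0.05. The tetraspanin Cd63 changed by -0.56 (edgeR adjusted p = 0.000272), Cd9 by -0.47 and Cd82 by -0.51, and Sirpa, the receptor for CD47, by -0.25. Cd81 at -0.02 and Cd47 at -0.09 did not pass. With library totals alone 3 were lower, against 4.67% of all tested genes. The number was also 3, against 3.27% to 3.75%, when any 1 library with lipids or replicate 2 without was left out. It was 10, against 15.1%, when replicate 1 without lipids was left out. In the fits with 3, Sirpa was not called (edgeR adjusted p of 0.0546 to 0.0888). In the trafficking list, 12 of 14 passed the filter, and edgeR called 2 higher and 0 lower, 16.7% in all against 11.5% of all tested genes. DESeq2 and limma-voom also called 0 lower, and 2 were lower at an unadjusted p under 0.05 in edgeR. Those higher were Dab2, a clathrin adaptor that takes CD29 into the cell, at 0.70 (edgeR adjusted p = 3.37e-05), and Rab11a, of the recycling compartment, at 0.36. Both stayed called whichever library was left out. When replicate 1 without lipids was left out, 2 genes of the list were lower, against 15.1% of all tested genes. The number was 1 with no filter, with the replicate number as a block and without replicate 3 without lipids, against 5.42%, 7.34% and 6.69%.

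**Figure D4:**
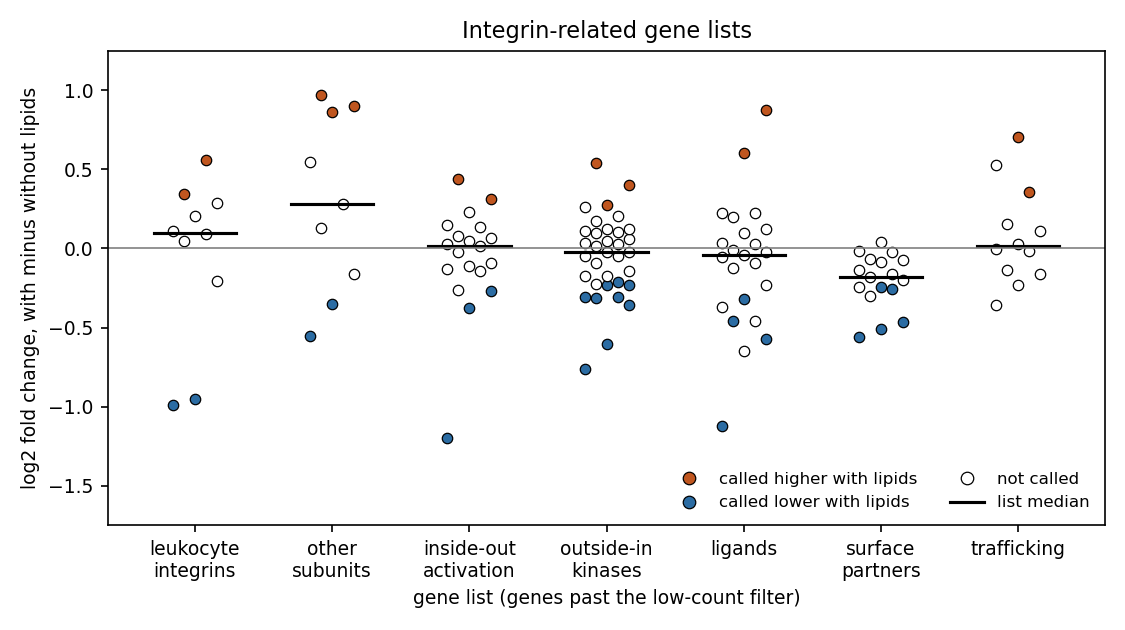
Log2 fold change, with minus without lipids, of each gene past the filter in the member set and 6 related lists; orange points were called higher and blue lower by edgeR, and bars are list medians. The surface partners have 5 lower calls and 0 higher, while the integrin subunits have calls on both sides.

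By likeness of log2 CPM over the 6 libraries, among 9489 protein-coding genes of at least 5 CPM, the genes nearest to Itgam were Gda, guanine deaminase (Pearson r = 0.999), Cnpy4 (0.998) and Cysltr1, a leukotriene receptor (0.997). These correlations over 6 libraries in 2 groups follow the group difference and are a description only. Gda was higher with lipids by 1.05, Cnpy4 by 0.33 and Cysltr1 by 0.65.

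Markers of other cells were read beside these values. Of 8 dendritic cell markers, which bear on Itgax, 3 passed the filter and 1 was higher with lipids, Kmo at 0.96. Their summed level was 6.56 to 7.34 CPM with lipids and 3.42 to 5.79 without, most of it Kmo at 4.63 to 5.02 and 1.79 to 3.63 CPM, followed by H2-DMb2 at 0.789 to 1.17 CPM. Flt3, Xcr1, Clec9a and Cd209a were at 0.327 CPM at most, Ccr7 at 0.413 and Zbtb46, which passed the filter, at 0.655. The part of these markers in the Itgax result was not tested. Of 7 osteoclast markers, which bear on Itgb3, 5 passed and 2 were lower with lipids, Ctsk at -0.90 and Acp5 at -0.76. Their summed level was 77.0 to 87.5 CPM with lipids and 83.6 to 93.4 without, most of it Nfatc1 at 57.1 to 60.7 and 52.0 to 63.5 CPM. Mean Ctsk was 6.51 CPM with lipids and 12.2 without, and mean Acp5 2.15 and 3.66 CPM. Calcr was at 0 in all libraries, and the part of the osteoclast markers in the Itgb3 result was not tested.

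Of 8 megakaryocyte and platelet markers, which also bear on Itgb3, 2 passed and Pf4 was higher at 0.83, while Gp5, Gp6 and Gp9 were at 0.0526 CPM at most. Their summed level was 406 to 422 CPM with lipids and 220 to 256 without, nearly all of it Pf4, which macrophages also express, and their part in the Itgb3 result was not tested. All 6 stromal markers passed, 1 was lower with lipids (Col3a1 at -0.50), and their sum was 120 to 127 CPM with lipids and 124 to 169 without. These sums overlapped between the groups, and their part in the Itga1 and Itga8 results was not tested. Of 8 neutrophil markers only Csf3r passed, at -0.70, with Ly6g and Retnlg at 0. The sum was 17.9 to 22.1 CPM with lipids and 25.0 to 37.7 without. Nearly all of it was Csf3r, at 17.6 to 21.5 and 24.2 to 37.1 CPM, and S100a8 was at 0.578 CPM at most. Lymphocyte and epithelial markers were below the filter, with sums of at most 0.748 and 0.795 CPM. With each library left out in turn, 0 to 1 dendritic cell markers and 1 platelet marker were called higher. Those called lower were 1 to 2 for osteoclast, 0 to 1 for neutrophil and 0 to 3 for stromal markers. Of all tested genes, 4.58% were higher and 6.87% lower in the full set, and 1.69% to 12% and 3.27% to 15.1% with a library left out.

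**Figure D5:**
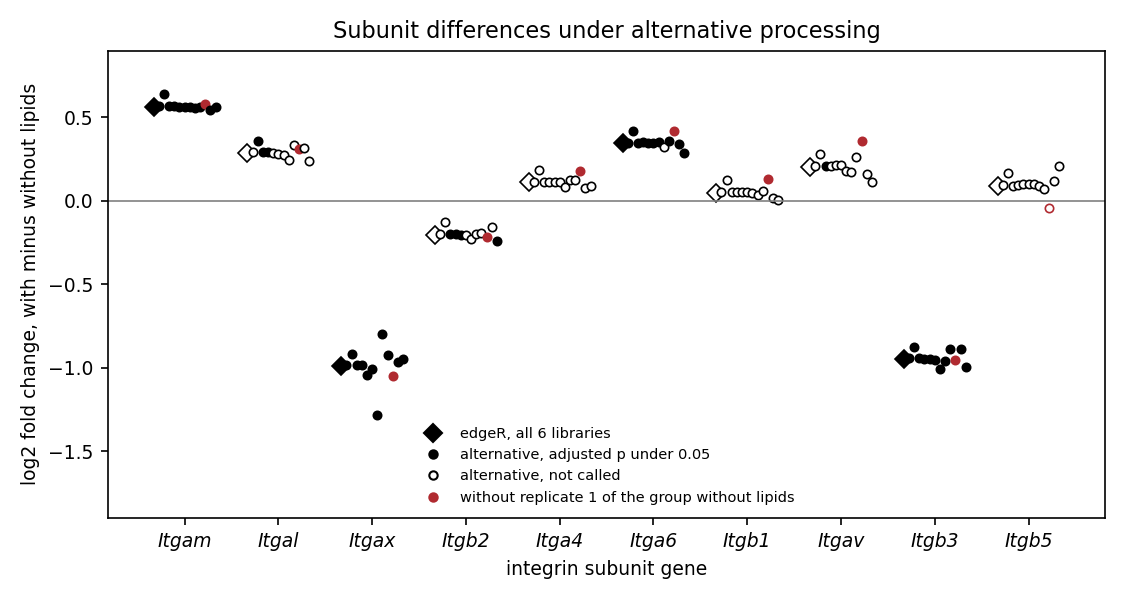
Log2 fold change of each subunit in the edgeR fit of all 6 libraries (diamonds) and under 12 alternatives (circles), filled where the adjusted p was under 0.05; red marks the fit without replicate 1 without lipids. Itgam, Itgax and Itgb3 are filled throughout, while Itgb5 crosses 0.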

How the data were processed

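The authors deposited raw counts per Ensembl gene for 6 libraries. Per the labels, the library kit selected poly(A) RNA and kept strand. The build is GRCm38.p4 and the tools are TopHat2 2.1.0, DESeq2 and HTSeq, listed without steps in the submitters' processing notes. Strand setting and annotation release of the counting are not stated in the sources used here. Symbols, coordinates and exon lengths came from GENCODE M21 (GRCm38), where 46091 of 46603 identifiers matched; the other 512 held 0.129% to 0.142% of counts.

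Testing used edgeR 4.0.16 (R 4.3.3; filterByExpr with minimum count 10 and total 15, TMM scaling, quasi-likelihood F test, two-sided, Benjamini-Hochberg over 12767 genes). CPM used library totals (19429022 to 25323053 counts before scaling) multiplied by TMM factors, and SE came from the F statistic. Pairs of replicates differed by more than sampling noise (chi-square of 2.67 to 19.9 per degree of freedom), so none were merged. Tested on simulated data for this comparison (12767 genes), 26%, 52%, 86% and 100% of 50 genes changed 1.25, 1.5, 2 and 4-fold were recovered, with 9 false calls among 141. The simulation gave a gene the same spread in every library, so no library stood apart. It also changed fewer genes than were called in the data, so these rates may not hold for the data.

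Named were all integrin subunits past the filter, up to 3 called genes a direction in each list by smallest p, each list's most abundant gene per length, and the 3 genes most like the member of smallest p. Others named were chosen after their values were seen, as were the promoter motifs. The members and lists were chosen with earlier results of these data known. Alternatives were other scalings, no filter, DESeq2 1.42.0, limma-voom (limma 3.58.1), a replicate block, a threshold of 0.01, 0.5 counts added to ratios, and each library left out. Some genes of the lists are not reported here by name.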

Additional observations from a re-analysis of the deposited data

How the results depend on the processing

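Itgam, Itgax and Itgb3 kept their direction and call in all 12 alternatives, at 0.55 to 0.64, -1.28 to -0.80 and -1.01 to -0.87 log2. Itga6 lost its call only without replicate 2 with lipids (0.32). Itgal passed with library totals alone (0.36), no filter (0.29) and DESeq2 (0.29), Itgb2 with no filter (-0.20), DESeq2 (-0.20), limma-voom (-0.20) and without replicate 3 without lipids (-0.24), and Itgav with no filter (0.21). With each library left out in turn, log2 values ran from 0.29 to 0.42 for Itga6, 0.24 to 0.33 for Itgal, -0.24 to -0.16 for Itgb2, 0.076 to 0.18 for Itga4, 0.0056 to 0.13 for Itgb1, 0.11 to 0.36 for Itgav and -0.042 to 0.21 for Itgb5. The ratio of Itgav to Itgb5 ran from -0.10 to 0.39 there, and the signs of the other 9 ratios held in every alternative. Itga3 ran from -0.040, without replicate 1 without lipids, to 0.51, and Itga10 turned to -0.0066 and -0.019 without replicate 2 with lipids or replicate 2 without.

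Members called higher were 4 with no filter and 1 to 6 with a library left out, against 1.69% to 12% of tested genes, and 2 to 3 were lower, against 3.27% to 15.1%. Library totals alone gave 1241 genes higher and 596 lower, which moved the median of all tested genes to 0.07 and the share of calls that were higher from 40.0% to 67.6%, and 1009 were higher with no filter, 1243 lower. A threshold of 0.01 left 216 higher and 444 lower, and leaving out a library gave 219 to 1566 and 423 to 1975. Over the 6 related lists, 12 genes were higher and 23 lower, beside 4.58% and 6.87% of all tested genes. Under library totals alone this balance turned to 16 higher and 13 lower, beside 9.72% and 4.67%, as it did over all genes. Without a library 7 to 21 were higher and 11 to 36 lower, beside the same 1.69% to 12% and 3.27% to 15.1% of tested genes. The causes were not tested.

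Deviations of same-numbered libraries correlated at -0.04, -0.14 and 0.20, and those of differently numbered libraries at -0.15 to 0.20. With 3 libraries in each group, these values cannot decide whether the numbers pair the libraries. With the replicate number as a block, 2 members were higher and 2 lower, and over all genes 715 and 937. The block ended the call of Itgb1bp1 (-0.27, edgeR adjusted p = 0.0578). Depth limits the scarce subunits Itgax and Itgb3, which rest on 81 to 196 counts per library.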
